A study of Mus with 9 samples.

Results

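The choroid plexus is the secretory tissue of the brain ventricles. Its epithelium makes cerebrospinal fluid, seals the blood from that fluid with tight junctions, and releases carrier proteins and hormones into it. It hangs in the ventricle beside the hippocampus, and the RNA studied here came from dissected hippocampus. The 9 genes described are Ttr, Kl, Folr1, Enpp2, Clic6, Aqp1, Otx2, Slc4a5 and Cldn2, which are known for high expression in this epithelium. They were chosen by gene symbol, and each symbol belonged to 1 of the 22206 probe sets (the groups of short probes that measure 1 transcript cluster) of the Clariom S Mouse array.

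The study placed 3 arrays in each of 3 groups of male mice, housed singly and 16 weeks of age at the start of the study. SAMR1 is the senescence-resistant strain that served as the normal aging control and was given vehicle. SAMP8, the senescence-prone strain with early loss of learning and memory, was also given vehicle. TG-treated SAMP8 mice took trigonelline (TG), a plant alkaloid, by mouth at 5 mg/kg/day for 30 days, and dosing went on through 8 further days of water maze testing that all groups underwent. The vehicle is saline in the sample records and water in the methods. The strains differ at many loci, so SAMR1 is a related strain and not an untreated SAMP8 littermate.

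Only the authors' average of each group is used here, as log2 signal, where a step of 1 is a 2-fold step. The averages carry no error and no value per mouse, so a difference between groups cannot be set against the spread between mice, and no test was run. A difference was counted when it passed 1.5-fold (0.585 on the log2 scale), and the share of all 22206 probe sets past the same limit is the background for each count. That share was 11.1% between SAMP8 and SAMR1, 8.21% between TG-treated and nontreated SAMP8 and 10.5% between TG-treated SAMP8 and SAMR1. The 3 comparisons use each group in 2 of them and are not independent. Fewer choroid plexus cells in a dissected sample and less RNA per cell cannot be told apart in such tissue.

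Genes expressed in hippocampal excitatory neurons were read first, and whether the samples also held neighbouring tissue was not tested. Slc17a7, the vesicular glutamate transporter of these neurons, averaged 18.02 in SAMR1, 18.12 in nontreated SAMP8 and 18.11 in TG-treated SAMP8, and Neurod6 averaged 14.86, 14.85 and 14.88. Of 9 such genes, 2 were past 1.5-fold between the strains (Bok and Prox1, both higher in SAMP8) and 1 with TG (Prox1, lower), beside 11.1% and 8.21% of all probe sets. The label of the 9 genes was checked against 30 further genes of choroid plexus epithelium. Kcnj13, a potassium channel of that epithelium, averaged 6.07 in SAMR1, 6.61 in nontreated SAMP8 and 6.62 in TG-treated SAMP8. Prlr, the prolactin receptor, averaged 4.77, 4.55 and 4.6. Sostdc1, a secreted Wnt and BMP antagonist, averaged 6.32, 6.31 and 6.97. Among all 30, 11 had a signal among the lowest 25% of the array (below 4.4 over the 3 groups), as did Otx2 and Cldn2 of the 9 genes.

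The 9 genes did not share 1 direction in any comparison. The averages of Ttr stepped up from SAMR1 to SAMP8 to TG-treated SAMP8, Kl was highest in nontreated SAMP8, and Otx2 stepped down in the same order in which Ttr stepped up. Between the strains 2 of the 9 were past 1.5-fold, both higher in SAMP8 (Ttr and Kl), against 11.1% of all probe sets (5.0% higher and 6.08% lower). Between TG-treated and nontreated SAMP8 2 of the 9 were past it, Ttr higher and Kl lower, against 8.21% of all probe sets (4.48% higher and 3.74% lower). Between TG-treated SAMP8 and SAMR1 2 of the 9 were past it, Ttr higher and Otx2 lower, against 10.5% (5.62% higher and 4.83% lower). At 1.2-fold the counts in these comparisons were 5, 6 and 2 of the 9, beside 40.8%, 38.2% and 40.5% of all probe sets, and at 2-fold they were 0, 0 and 1, beside 2.22%, 0.761% and 1.81%. The median difference of the 9 genes was 0.18 between the strains, -0.17 with TG and -0.03 between TG-treated SAMP8 and SAMR1, beside 0.00, 0.01 and -0.01 for all probe sets.

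**Figure D1:**
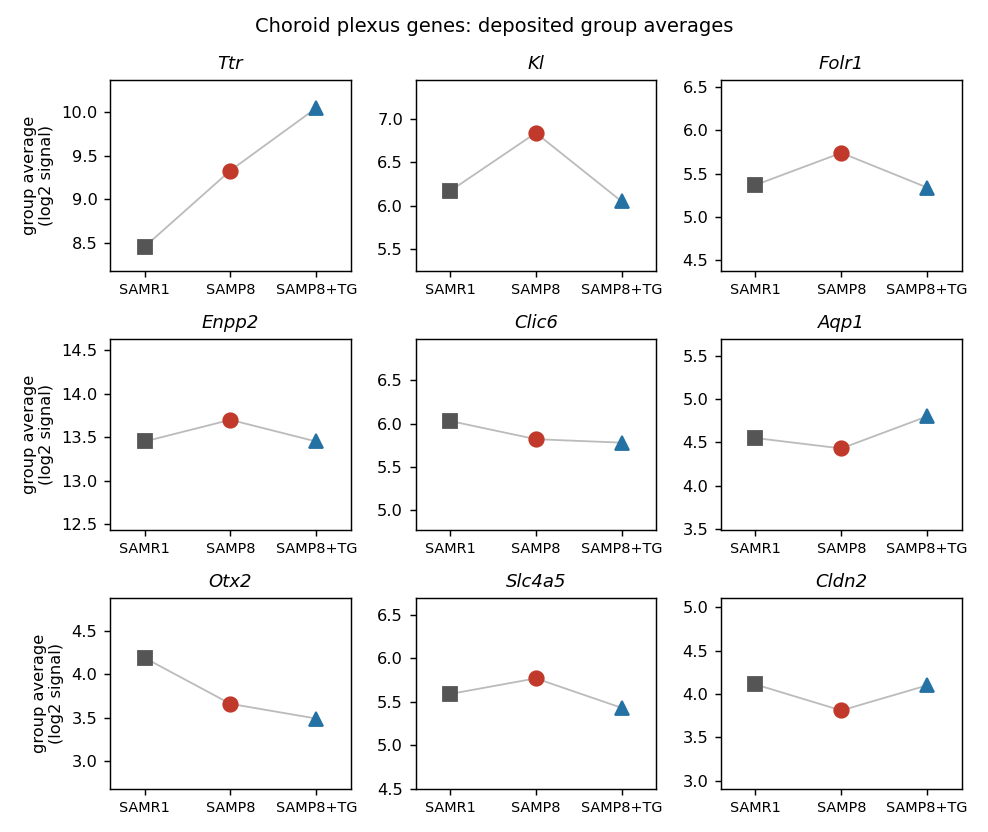
Group average of log2 signal (vertical axis) of each of the 9 choroid plexus genes in SAMR1, SAMP8 and TG-treated SAMP8 (SAMP8+TG). Each panel spans the same number of log2 units around its own gene, each symbol is 1 deposited average with no error bar, and grey lines only join the symbols. Ttr climbs from 8.45 to 10.05, Kl peaks at 6.84 in SAMP8, and the Enpp2 averages lie within 0.25 of each other.

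Ttr encodes transthyretin, the carrier of thyroxine and of retinol-binding protein, and the choroid plexus is its main source in the brain. The gene lies on chromosome 18 from 20664209 to 20674326 (GRCm38). Its averages were 8.45 in SAMR1, 9.33 in nontreated SAMP8 and 10.05 in TG-treated SAMP8. SAMP8 was higher than SAMR1 by 0.88 (1.84-fold), and TG-treated SAMP8 was higher than nontreated SAMP8 by 0.72 (1.65-fold). Of all probe sets, 3.40% differed at least as much between the strains and 4.19% with TG. The distance between TG-treated SAMP8 and SAMR1 was the widest of any of the 9 genes in any comparison, 1.60 or 3.03-fold, a size reached by 0.374% of all probe sets and by 0.886% of the 1581 probe sets whose signal lay within 0.5 of that of Ttr. Among the other 8 genes of the group, none was higher than in SAMR1 by 1.5-fold in TG-treated SAMP8, beside 5.62% of all probe sets. The widest positive difference among these 8 was the 0.25 of Aqp1.

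The genes that act with transthyretin were taken as a list of 11, of carriers, transporters and receptors of thyroid hormone and retinol. Past 1.5-fold between the strains, 2 of the 11 were higher in SAMP8, beside 5.0% of all probe sets. Thrb, a thyroid hormone receptor and 1 of these 2, averaged 9.51 in SAMR1, 10.11 in nontreated SAMP8 and 9.62 in TG-treated SAMP8. Rbp4, which encodes the retinol-binding protein that transthyretin carries, averaged 5.78, 6.02 and 6.62 and followed the same order of groups as Ttr, with a difference of 0.60 with TG that became 0.57, inside 1.5-fold, when each group was centred on its median. Stra6, the cell surface receptor for that protein, averaged 8.32, 8.50 and 7.69, a difference of -0.81 with TG. With TG 1 of the 11 was past 1.5-fold higher (Rbp4) and 2 lower (Stra6 among them), beside 4.48% and 3.74% of all probe sets. The list's median with TG was -0.10. Slco1c1, a thyroxine transporter of the blood-brain barrier and choroid plexus, averaged 11.12, 10.68 and 10.19, and was lower in TG-treated SAMP8 than in SAMR1 by a difference of -0.93. In that comparison 1 of the 11 was past 1.5-fold higher and 2 lower, beside 5.62% and 4.83% of all probe sets.

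Kl encodes klotho, a membrane and secreted protein made by kidney and choroid plexus that serves as coreceptor for FGF23, and whose loss in mice gives early signs of aging. It lies on chromosome 5 from 150952607 to 150993817. The averages were 6.17 in SAMR1, 6.84 in nontreated SAMP8 and 6.05 in TG-treated SAMP8. SAMP8 stood above SAMR1 by 0.67 (1.59-fold), which 7.89% of all probe sets equalled or passed. With TG the difference was -0.79 (1.73-fold lower), the widest of the 9 genes in that comparison, and 2.77% of all probe sets differed as much. TG-treated SAMP8 and SAMR1 were 0.12 apart. Within 0.5 of the signal of Kl, 3.56% of 2469 probe sets differed as much with TG and 11.6% between the strains.

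The FGF receptors, the other klothos, the hormones that bind them and the enzymes that shed klotho from the membrane formed a list of 11. Past 1.5-fold there was 1 gene higher in SAMP8 than in SAMR1 (Lctl, a further klotho family member, with averages of 4.20 in SAMR1, 5.00 in nontreated SAMP8 and 4.51 in TG-treated SAMP8) and 0 in the TG comparison. The shares of all probe sets were 5.0% higher between the strains and 8.21% in either direction with TG. Fgfr1, the receptor that klotho turns into a receptor for FGF23, averaged 6.78, 7.23 and 6.67, again highest in nontreated SAMP8, with a difference of -0.56 with TG that lay inside the limit and passed it when each group was centred on its median. Klb, the coreceptor for FGF21, averaged 4.71, 4.46 and 4.71. Adam10 and Adam17, proteases that release the outer part of klotho, lay within 0.22 and 0.12 between nontreated and TG-treated SAMP8.

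**Figure D2:**
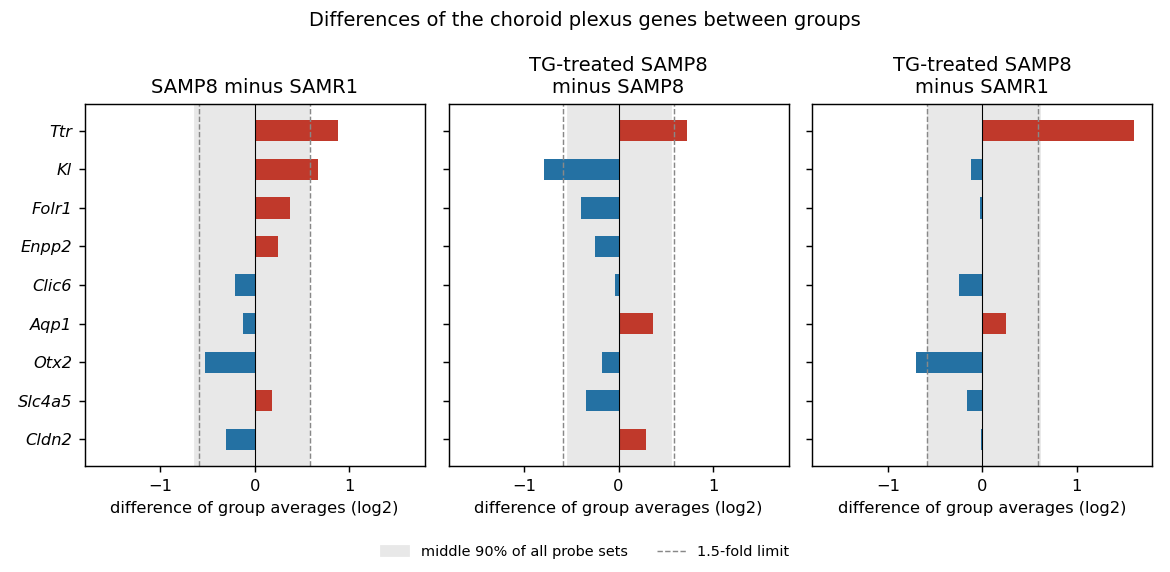
Difference of group averages in log2 units (horizontal axis) for each of the 9 genes in the 3 comparisons; bars to the right are higher in the first-named group. The grey band spans the middle 90% of all 22206 probe sets and dashed lines mark 1.5-fold; Ttr passes the line in every panel, Kl in the first 2 and Otx2 in the last.

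Folr1 encodes the folate receptor that carries folate across the choroid plexus into the fluid, on chromosome 7 from 101858331 to 101870788. It averaged 5.37 in SAMR1, 5.74 in nontreated SAMP8 and 5.34 in TG-treated SAMP8, so nontreated SAMP8 was highest, as for Kl, with differences of 0.37 and -0.40 that stayed inside 1.5-fold. As much difference with TG was found for 21.4% of all probe sets. None of 7 further genes of folate uptake and use was past the limit in any of the 3 comparisons. The shares of all probe sets past it were 11.1%, 8.21% and 10.5%, so a count of 0 in so short a list is near the background. Slc19a1, the reduced folate carrier, averaged 7.95, 8.19 and 7.90, and Slc46a1, the proton-coupled folate transporter, averaged 4.62, 4.23 and 4.48.

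Enpp2 encodes autotaxin, the secreted enzyme that makes lysophosphatidic acid, on chromosome 15 from 54838901 to 54952789. Oligodendrocytes also express it, so it is the least specific of the 9 genes in whole hippocampus. Its averages were 13.45 in SAMR1, 13.70 in nontreated SAMP8 and 13.45 in TG-treated SAMP8. The 2 outer groups were equal to the 2 decimals of the tables, and SAMP8 stood 0.25 above both. Beside it, 8 oligodendrocyte genes, chosen after the values of Enpp2 had been seen, had a median difference of -0.23 between the strains and 0.375 with TG, each opposite in sign to the difference of Enpp2. Their part in the Enpp2 values was not tested. Of 9 receptors and phosphatases for lysophosphatidic acid, 2 were lower in SAMP8 than in SAMR1 (Lpar5 and Lpar6, of which 1 stayed past the limit with centring) and 1 lower with TG (Lpar4), beside 6.08% and 3.74% of all probe sets lower. The receptor Lpar4 averaged 8.17 in SAMR1, 8.00 in nontreated SAMP8 and 7.11 in TG-treated SAMP8. Lpar6 averaged 6.54, 5.78 and 5.61.

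Aqp1, Slc4a5 and Clic6 serve the movement of water and ions. Aqp1, the water channel of the fluid-facing membrane (chromosome 6, 55336299 to 55348555), averaged 4.55 in SAMR1, 4.43 in nontreated SAMP8 and 4.80 in TG-treated SAMP8. Slc4a5, the sodium bicarbonate cotransporter NBCe2 of the same membrane (chromosome 6, 83207580 to 83304945), averaged 5.59, 5.77 and 5.43. Clic6, a chloride intracellular channel protein (chromosome 16, 92498147 to 92541241), averaged 6.03, 5.82 and 5.78. None of these genes was past 1.5-fold in any comparison, beside 11.1%, 8.21% and 10.5% of all probe sets. Their differences with TG were 0.37, -0.34 and -0.04. Differences as large as those of Aqp1 and Slc4a5 were found in 24.5% and 28.1% of all probe sets. The signal of Aqp1 over the 3 groups, 4.59, lay just above the lowest 25%. Among 16 further genes of this kind, 1 was lower in SAMP8 than in SAMR1 and 1 higher with TG, and both were Car2, a cytosolic carbonic anhydrase also made by oligodendrocytes, with averages of 13.84, 12.87 and 13.53, beside 6.08% of all probe sets lower between the strains and 4.48% higher with TG. Slc12a2, the sodium, potassium and chloride cotransporter NKCC1 that also takes part in fluid secretion, averaged 10.47 in SAMR1 and 10.49 in TG-treated SAMP8, and stood 0.53 higher in nontreated SAMP8 than in SAMR1. The sodium pump subunit Atp1b1 lay within 0.09 over all 3 comparisons.

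Cldn2, the claudin that forms a cation and water pore in the tight junction (chromosome X, 139800808 to 139811386), averaged 4.11 in SAMR1, 3.81 in nontreated SAMP8 and 4.10 in TG-treated SAMP8. Its differences of -0.30 and 0.29 were inside the limit, and its signal was among the lowest 25%. Of 9 further tight junction genes, 3 were higher in SAMP8 than in SAMR1 (Cldn1, Cldn12 and Ocln), and with TG 1 was higher (Cldn11) and 1 lower (Ocln), beside 5.0% of all probe sets higher between the strains and 4.48% higher and 3.74% lower with TG. Ocln, which encodes occludin, averaged 6.51, 7.38 and 6.38, with differences of 0.87 and -1.0. Cldn11, the claudin of myelin, averaged 8.74, 9.10 and 9.81. Cldn3, which epithelia share with the choroid plexus, averaged 3.95, 4.36 and 4.79. It was higher in TG-treated SAMP8 than in SAMR1 by 0.84, where 5.62% of all probe sets were past 1.5-fold higher. The signal of Cldn3 was also among the lowest 25%.

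Otx2, the homeodomain transcription factor that the choroid plexus needs for its formation and secretes into the fluid (chromosome 14, 48656781 to 48667644), averaged 4.19 in SAMR1, 3.66 in nontreated SAMP8 and 3.49 in TG-treated SAMP8. The strain difference was -0.53 and the TG difference -0.17, both inside 1.5-fold. TG-treated SAMP8 against SAMR1 gave -0.70 (1.62-fold lower), past the limit, which 6.57% of all probe sets also reached. The signal of Otx2 was among the lowest 25% in the array. None of 6 genes of the OTX family and its partners was past the limit in any comparison, beside 11.1%, 8.21% and 10.5% of all probe sets. With each group centred on its median, 1 was past it between the strains. Otx1 averaged 5.43, 5.09 and 5.33.

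**Figure D3:**
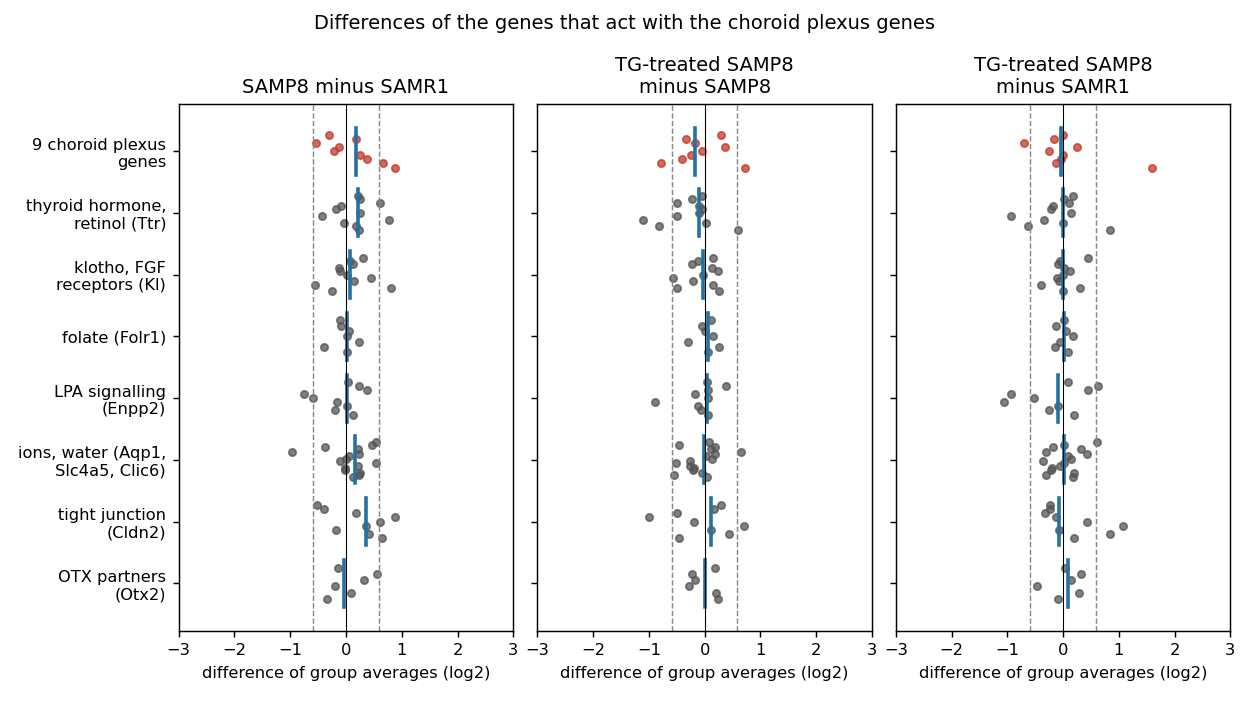
Differences of group averages in log2 units (horizontal axis) for the 9 genes (red points) and for the lists of genes that act with them (grey points, 1 per gene), in the 3 comparisons. Blue bars are list medians and dashed lines mark 1.5-fold. The folate and OTX lists lie wholly inside the lines, as do most probe sets of the array.

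Of the 30 further genes of choroid plexus epithelium, 1 was higher and 1 lower in SAMP8 than in SAMR1, beside 5.0% and 6.08% of all probe sets, and Kcnj13 joined the higher ones with centring (0.59). Igfbp2, a binding protein for insulin-like growth factors that other brain cells make too, averaged 9.36 in SAMR1, 10.03 in nontreated SAMP8 and 9.59 in TG-treated SAMP8, and Kcne2, a potassium channel subunit, averaged 4.59, 3.75 and 4.27. With TG 1 was higher (Sostdc1, difference 0.66) and 2 lower (Car12 and Slc13a4), beside 4.48% and 3.74%. Car12, a membrane carbonic anhydrase, averaged 7.13, 7.45 and 6.39, a difference of -1.06 with TG. Slc13a4, a sulfate transporter, averaged 4.82, 5.31 and 4.68. Against SAMR1, TG-treated SAMP8 was higher in Spint2 and Sostdc1 (0.76 and 0.65) and lower in Car12 (-0.74), beside 5.62% and 4.83% of all probe sets. The medians of the 30 were 0.005, -0.015 and -0.07 in the 3 comparisons, and 15 of the 30 were above 0 and 15 below with TG.

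Markers of tissues next to the choroid plexus were read in the same way. Ependyma, the ciliated lining of the ventricle, was represented by 11 genes. Of these 1 was lower in SAMP8 (Fam183b) and 2 higher with TG (Fam183b and Tmem212), beside 6.08% and 4.48% of all probe sets, and Fam183b averaged 6.02 in SAMR1, 5.08 in nontreated SAMP8 and 5.83 in TG-treated SAMP8. The median difference of the 11 was -0.03 between the strains and -0.02 with TG. Between the strains 4 differences were positive and 7 negative, and with TG 5 and 6. The signal of 5 of the 11 was among the lowest of the array. Fam183b (-0.94 and 0.75) and Tmem212 (-0.45 and 0.68) differed most. The sum of the linear signals of the 11 was 429 in SAMR1, 365 in nontreated SAMP8 and 419 in TG-treated SAMP8. It was lowest in SAMP8, where Kl was highest, but the median differences of -0.03 and -0.02 show no such fall across the list. The median signal of the 11 was 4.63 in SAMR1, 4.32 in nontreated SAMP8 and 4.36 in TG-treated SAMP8, also lowest in nontreated SAMP8. The sum was not recomputed without Fam183b and Tmem212. The same sum over the 30 further choroid plexus genes was 3691, 4335 and 3742. Without Igfbp2 and Cab39l, left out after the values were seen because they carried most of that sum, it was 1382, 1431 and 1376.

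Genes of the meninges and stroma were on balance highest in nontreated SAMP8, the group in which Kl, Folr1, Enpp2 and Slc4a5 were also highest. Of 18 such genes, 6 were higher and 2 lower in SAMP8 than in SAMR1, and with TG 0 were higher and 9 lower. The shares of all probe sets were 5.0% higher and 6.08% lower between the strains and 4.48% higher and 3.74% lower with TG, and with centring 1 of the 2 lower between the strains (Lum) was no longer past the limit. Their medians were 0.295 between the strains and -0.475 with TG. Igf2, a growth factor that meninges and the stroma of the choroid plexus make, averaged 7.09, 8.67 and 6.78, and Ptgds, a prostaglandin D synthase of the meninges and choroid plexus, averaged 9.39, 10.26 and 7.57. Both were lowest in TG-treated SAMP8, where Ttr was highest. Summed linear signals of the list were 3678 in SAMR1, 4402 in nontreated SAMP8 and 2108 in TG-treated SAMP8. Dcn and Ptgds, the genes of highest signal in the list, weighed most in this sum, which was not recomputed without them. Dcn averaged 10.66 in SAMR1, 10.15 in nontreated SAMP8 and 9.38 in TG-treated SAMP8. Smooth muscle genes (5) had 1 higher and 1 lower between the strains and 1 higher and 2 lower with TG, beside the same shares. Acta2 averaged 5.52, 7.71 and 5.54, and Tagln went the other way in both comparisons, at 4.74, 3.91 and 4.62. The median difference of the 5 was -0.09 between the strains and -0.3 with TG. Endothelial genes (7) had 2 higher in SAMP8 (Abcb1a and Flt1) and 2 lower with TG (Abcb1a and Slco1a4), beside 5.0% and 3.74% of all probe sets. Their summed linear signals were 3334, 6462 and 3964, to which Abcb1a, a drug efflux pump with averages of 6.50, 10.82 and 9.90, added most of the strain difference. Without Abcb1a the sums were 3244, 4655 and 3009, and without Slco1a4 as well they were 1109, 1507 and 1435. The part of meninges, stroma and vessels in the values of Kl and Folr1 was not tested.

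**Figure D4:**
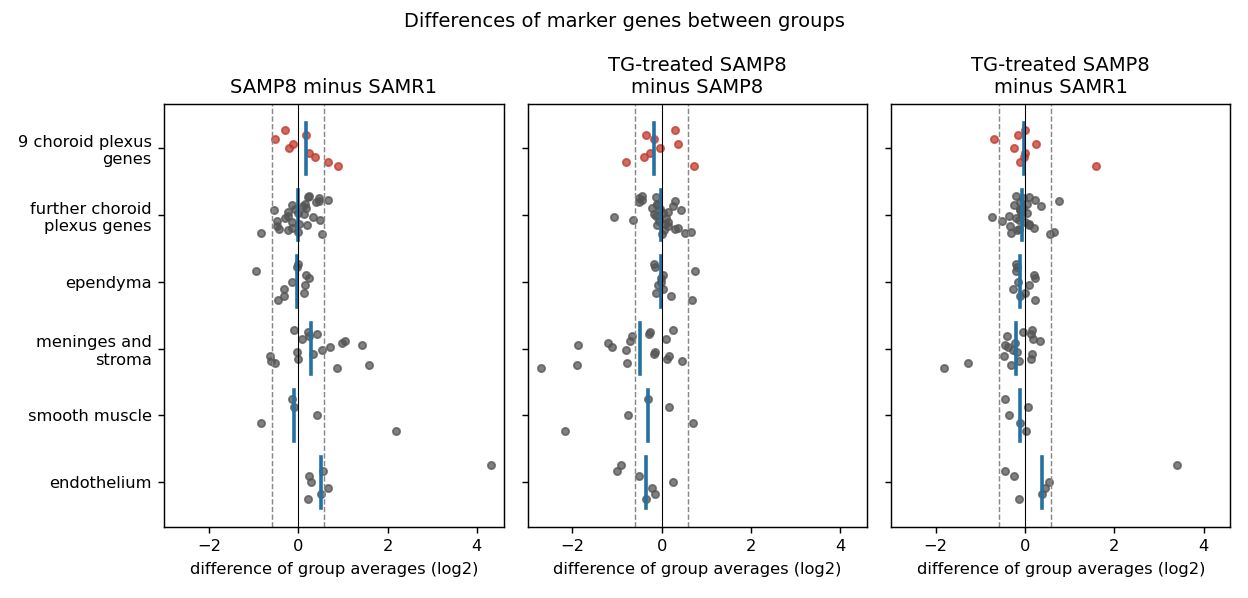
Differences of group averages in log2 units (horizontal axis) for the 9 genes (red points) and for marker genes of choroid plexus epithelium, ependyma, meninges and stroma, smooth muscle and endothelium (grey points, 1 per gene), in the 3 comparisons. Blue bars are list medians and dashed lines mark 1.5-fold; with TG the meninges and stroma median lies at -0.475 while that of the 30 further choroid plexus genes lies at -0.015.

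By the order of their averages, 4 of the 9 genes were highest in nontreated SAMP8 (Kl, Folr1, Enpp2 and Slc4a5), as were 32.2% of all probe sets. Aqp1 and Cldn2 were lowest there, as were 32.7%. Ttr was the only one of the 9 that stepped up from SAMR1 through SAMP8 to TG-treated SAMP8, an order found in 16.6% of all probe sets, and Clic6 and Otx2 stepped down, an order of 15.5%. Without errors, none of the neighbouring groups in these orders can be called different, and several were close. The 2 lowest groups of Folr1 were 0.03 apart, those of Clic6 0.04, and the 2 highest of Cldn2 0.01.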

How the data were processed

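Hippocampal RNA of 9 mice was hybridized to Clariom S Mouse arrays. The authors summarized the intensities by SST-RMA in the Transcriptome Analysis Console and deposited 2 tables, each with 2 group averages as log2 signal. How the 3 arrays were averaged is not given in the sources used here. The tables also hold the authors' fold changes, p-values and adjusted p-values, which were not used. The SAMP8 averages were identical in both tables. The series text speaks of duplicate samples, and a description attached to each record, on another cell type, was ignored. The number of arrays limits the precision.

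Differences were taken between log2 averages, and probe sets were matched by a symbol cell equal to the gene name. Of 172 genes in 15 further lists 165 matched, among them 8 oligodendrocyte genes of a list added after the data were seen. Foxj1 shares its probe set with Rnf157 and was left out. Where a symbol had several probe sets, that with the highest average was used. Genes named are the 9, and from each list chiefly those past 1.5-fold, with Igf2, Ptgds, Prlr and Kcnj13. Others, such as Slc17a7, Neurod6, Fgfr1, Klb, Adam10, Adam17, Slc19a1, Slc46a1, Slc12a2, Atp1b1 and Otx1, were named after their values were seen. Probe sets nearest to a gene in pattern were to be named for a difference over 1 with TG, which 0 of the 9 reached. The genes and lists were chosen with earlier results of these data known. Positions are from RefSeq on GRCm38, the build (mm10) of the array annotation per the file headers. Counting was tested on simulated data. Python 3.11.15, numpy 2.4.6 and pandas 2.3.3 were used. Some genes of the lists are not reported here by name. Sequences were not used here.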

Additional observations from a re-analysis of the deposited data

How the results depend on the processing

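No paired analysis was possible because the tables hold 1 average per group, and for the same reason no replicate could be left out in turn. The counts of the 9 genes followed the fold limit. At 1.2-fold, 5 of the 9 genes were past the limit between the strains and 6 with TG. At 2-fold there were 0 between the strains and 0 with TG, where no test stands behind either count, and 1 (Ttr) between TG-treated SAMP8 and SAMR1. Without the 25% of probe sets of lowest signal, which removes Otx2 and Cldn2, 1 gene was past 1.5-fold between TG-treated SAMP8 and SAMR1. Centring each group on its own median, which shifts the comparisons by -0.05, 0.03 and -0.02, left the counts of the 9 genes as they were. Of the counts over the further lists, centring moved 4 by more than 1.5 times, each of them to 1 gene. With Ttr left out, a choice made after the data were seen, the median of the other 8 genes was 0.03 between the strains, -0.21 with TG and -0.075 between TG-treated SAMP8 and SAMR1. Averaging the probe sets of a symbol could not change the 9 genes, each of which has 1.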

Other observations

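The thalamus lies below the hippocampus and its genes were read as a further list of 8. Tcf7l2 and Slc17a6 were higher in SAMP8 than in SAMR1 by more than 1.5-fold, beside 5.0% of all probe sets, and with TG they differed from nontreated SAMP8 by less than 0.1: Tcf7l2, a transcription factor of thalamic neurons, averaged 7.72 in SAMR1, 8.48 in nontreated SAMP8 and 8.44 in TG-treated SAMP8, and Slc17a6, a vesicular glutamate transporter of thalamic neurons, averaged 7.48, 8.14 and 8.21. Prkcd and Zic1 were the 2 of the list past 1.5-fold with TG, both lower (as were 3.74% of all probe sets), with averages of 11.03 and 9.53 for Prkcd and 11.47 and 9.56 for Zic1 in nontreated and TG-treated SAMP8. The list thus held genes of both kinds, and its median difference with TG was -0.085.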
